A study of Mus musculus with 41 samples.

Results

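The collagen and laminin genes of a mouse endocardial cell line are described here, across contact with Notch ligands and a block of Notch cleavage. They are the genes whose symbol is Col followed by a number, a and a number, or Lam followed by a, b or c and 1 digit. Of the 13886 genes of the first table, 38 met this rule, 29 of them collagen genes and 9 laminin genes. The second table listed 36 of the 38, without Col11a2 and Lamc3, and the last listed 35, without Col2a1 as well. In the annotation, 55 protein-coding genes carry such a symbol, so these are the members that passed the authors' listing and not every collagen or laminin gene of the mouse.

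Collagens are proteins of 3 chains wound into a triple helix. Collagens I, III, V and XI build fibrils, collagen IV builds the network of the basement membrane, and collagens XV and XVIII carry sugar chains and sit at basement membranes, where collagen XVIII holds the fragment endostatin. Laminins are cross-shaped trimers of an alpha, a beta and a gamma chain, and they form the second network of the basement membrane. In the developing heart, the endocardium is the inner lining, it signals through Notch, and part of it invades a collagen-bearing matrix to make the valves. Notch receptors are cut by gamma-secretase after a ligand binds, and the freed part acts with the DNA-binding protein RBPJ.

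The line, MEEC, is wild type and derives from embryonic mouse endocardium, and 41 RNA-seq libraries in 13 groups were read from it, with a table for each experiment. In the first, MEEC were laid for 24 h or 6 h over OP9 stromal cells that express Dll4, Jag1 or, as the control, GFP, with 3 libraries in each of the 6 groups. MEEC were at 25% confluency in the 24 h groups and at 50% in the 6 h groups. In the second, MEEC were treated for 24 h with 20 µM RO4929097, a gamma-secretase inhibitor, or with the vehicle DMSO, and then laid for 6 h over OP9-GFP cells, with 4 libraries each. In the last, wells held recombinant DLL4 with a His tag plus RO4929097, recombinant JAG1 with an Fc tag plus RO4929097, either ligand with DMSO, or DMSO without ligand, for 38 h in all, of which the last 14 h were without serum, with 3 libraries in each of the 5 groups. Both cell types of the co-cultures are mouse, and the sources used here do not say that OP9 cells were removed, so RNA of both may be in those libraries. No coating of the DMSO wells with a tag alone is named. In such bulk RNA, fewer cells of a type and less RNA per cell cannot be told apart. All data come from 1 cell line, the dishes were coated with gelatin, and the labels do not tell whether replicate libraries are separate cultures. The p-values thus measure the spread between libraries, which may be technical. Of 16 endothelial and endocardial markers, 9, 8 and 8 were listed in the 3 tables. Cd34 was listed at 34.5 to 85.5, Tek at 7.99 to 102 and Kdr at 4.82 to 16.7, with Nfatc1, Fli1, Npr3 and Tal1 lower than Cd34 in each table. Pecam1, Cdh5, Tie1, Emcn, Erg, Sox17 and Sox18 were not listed in any.

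Each value is the authors' normalised signal, close to reads in 1 M reads. Differences are log2 fold changes of signal + 1 with their standard errors from limma, and "rose" and "fell" are used where the p-value adjusted over all genes of that table was under 0.05. The libraries held 14.1 to 16.82 M reads in the co-cultures with ligand-bearing cells, 19.43 to 25.17 M after pretreatment and 11.2 to 34.19 M in coated wells. Some libraries stood apart. In the second table, the library numbered 1 of each group held 1030 (RO4929097) and 931 (DMSO) of Cxcl12, a stromal chemokine gene, against 176 to 287 in the other 6. In the first, the libraries numbered 2 at 6 h held more Col3a1, Lama4 and Cxcl12 than the other libraries of their groups. In the last, DMSO library 3 held 2721 of Col3a1, against 4717 and 5091 in the other DMSO libraries. In coated wells the Notch targets followed the labels. Of 6 listed, 5 rose with each recombinant ligand and 5 fell when RO4929097 was added to it. Of all genes, 9.58% were called with rJAG1, 3.5% with rDLL4, and 18.4% and 10.7% on adding RO4929097 to them. Over OP9-Jag1, 3 of 6 rose at 6 h and 4 at 24 h (0.101% and 2.02% of all genes called). Over OP9-Dll4, 0 rose at 6 h and 3 at 24 h (0.0072% and 0.511%). After pretreatment all 4 listed fell with RO4929097 (0.909%).

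Sequences at the starts of a few of these genes are printed here. The 6 collagen IV genes lie in 3 head-to-head pairs: Col4a1 and Col4a2 on chromosome 8 share 22 bases at their starts, Col4a4 and Col4a3 on chromosome 1 start 71 bases apart, and Col4a6 and Col4a5 on chromosome X start 1308 bases apart. The stretches below are shown because the members of a pair, and Col15a1, Col18a1 and Col11a1, changed with ligand or inhibitor. They are taken from RefSeq on GRCm38.p6, 5′ to 3′ on the strand of the named gene (of Col4a4 for the first), and capitals mark TGGGAA, the core that RBPJ binds, on either strand.
Col4a3 and Col4a4, chr1:82586850-82586920, all bases between the starts: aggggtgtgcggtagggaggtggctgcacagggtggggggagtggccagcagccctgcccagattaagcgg
Col4a6, chrX:141474077-141474326, bases before the start: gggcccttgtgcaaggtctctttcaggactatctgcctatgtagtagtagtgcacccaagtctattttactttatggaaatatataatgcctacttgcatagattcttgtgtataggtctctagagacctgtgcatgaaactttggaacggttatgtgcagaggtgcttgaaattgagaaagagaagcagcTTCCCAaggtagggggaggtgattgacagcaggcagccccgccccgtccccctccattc
Col4a5, chrX:141475169-141475384, bases before the start: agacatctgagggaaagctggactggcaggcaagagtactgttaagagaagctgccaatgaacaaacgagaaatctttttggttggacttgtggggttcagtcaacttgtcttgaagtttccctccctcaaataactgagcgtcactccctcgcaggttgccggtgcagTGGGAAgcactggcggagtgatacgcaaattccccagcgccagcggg
Col15a1, chr4:47207762-47208011, bases before the start: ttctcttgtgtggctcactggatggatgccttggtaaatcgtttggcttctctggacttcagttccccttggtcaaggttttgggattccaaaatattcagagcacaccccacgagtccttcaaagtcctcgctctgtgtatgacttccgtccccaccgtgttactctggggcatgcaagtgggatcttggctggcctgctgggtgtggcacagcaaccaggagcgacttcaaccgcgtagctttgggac
Col18a1, chr10:77113706-77113955, bases before the proximal start: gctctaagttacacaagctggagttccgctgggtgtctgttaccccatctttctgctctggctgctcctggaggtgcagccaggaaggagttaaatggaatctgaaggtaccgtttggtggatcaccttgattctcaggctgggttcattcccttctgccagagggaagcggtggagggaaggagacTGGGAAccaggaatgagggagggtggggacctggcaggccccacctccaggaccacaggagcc
Col11a1, chr3:114030290-114030539, bases before the start: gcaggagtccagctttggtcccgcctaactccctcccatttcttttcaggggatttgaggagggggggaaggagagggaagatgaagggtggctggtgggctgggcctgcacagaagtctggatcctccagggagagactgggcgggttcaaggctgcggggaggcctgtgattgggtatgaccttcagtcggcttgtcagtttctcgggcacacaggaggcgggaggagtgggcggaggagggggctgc
The core stood 59 bases before the start of Col4a6 and 63 before the proximal start of Col18a1. For Col4a5 it stood 81 bases before the RefSeq start. That start lies inside the annotated first exon, past the end of the printed stretch. A start was found in RefSeq for 28 of the 38 genes, with 31 promoters. TGGGAA on either strand was in the 250 bases before 8 of these 31 starts (25.8%) and before 21.6% of all 32851 mouse starts. The longer form GTGGGAA, which contains that core, was in 1 of the 31 (3.2%) and in 5.4% of all. CACGTG, an E box, was in none of the 31 and in 6.0% of all. A match is a description of letters only. The sources used here do not give the strand setting of the counting, so reads of Col4a1 and Col4a2 in their 22 shared bases, and of Col5a1 and 2810430I11Rik in 99, cannot be told apart, nor can those of Col3a1 and Gm47302 on 1 strand in 141.

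Per kilobase of exon, the fibril genes Col1a1 and Col3a1 were the most abundant in DMSO wells and over OP9-GFP at 6 h. In DMSO wells, Col3a1 held 425 ± 130 signal per kb, Col1a1 341 ± 24.4 and Col5a2, which encodes a chain of the fibril regulator collagen V, 234 ± 12.1 (SD, n = 3). Over OP9-GFP at 6 h in the first table the highest were Col1a1 at 496 ± 22.8, Col3a1 at 274 ± 100.7 and Col4a1 at 263 ± 50.6 signal per kb. At the low end in DMSO wells were Col7a1 at 0.0771 and Col15a1 at 0.0841 signal per kb, with Col15a1 resting on 8 to 23 reads per library. All 38 together took 1.45% to 2.3% of the signal of a co-culture library of the first table.

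In coated wells rJAG1 raised Col1a1, Col1a2, Col5a1, Col5a3, Col11a1, Col15a1 and Col18a1, with Col4a1, Col8a2, Lamb3 and Lamc1, and it lowered Lama4, Col6a3 and 4 genes of collagens IV and VIII. Of 35 listed genes, 12 rose and 6 fell (51.4%). Of the 27 collagen genes 9 rose and 5 fell, and of the 8 laminin genes 3 rose and 1 fell. Of all 13407 genes 9.58% were called, 4.83% higher and 4.76% lower. The median log2 fold change was 0.20 over the 35 and 0.001 over all genes.

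Among fibril genes, Col5a3, a minor chain of collagen V, had 8.996, 13.02 and 11.3 signal in rJAG1 wells, against 2.57, 3.62 and 2.09 in DMSO wells (log2 fold change 1.69 ± 0.23, limma adjusted p = 0.00014). The groups were well apart, at a low level. Col5a1, the chain of collagen V that starts fibrils, had 374, 333 and 325 in rJAG1 wells, against 201, 193 and 187 in DMSO wells (0.83 ± 0.06, limma adjusted p = 4.1e-07). Every rJAG1 library was above every DMSO library. Col11a1, of the fibril collagen XI, had 394, 315 and 329 in rJAG1 wells, against 195, 171 and 205 in DMSO wells (0.86 ± 0.10, limma adjusted p = 3.1e-05), again without overlap. Col1a1 had 3671, 3223 and 3224 in rJAG1 wells, against 2335, 2329 and 2055 in DMSO wells (0.59 ± 0.09, limma adjusted p = 0.00037). Its partner Col1a2 had 1170.0, 1303 and 999 in rJAG1 wells, against 854, 897 and 525 in DMSO wells (0.64 ± 0.17). Both chains of collagen I thus rose, and DMSO library 3 gave the lowest value of each. Col5a2 averaged 2194 ± 136 in rJAG1 wells and 2247 ± 115 in DMSO wells and did not pass the test. Col3a1, which encodes the fibril collagen III, averaged 2758 ± 186 in rJAG1 wells and 4176 ± 1274 in DMSO wells and did not pass it either.

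Of the basement membrane genes, Col15a1 had 2.28, 2.78 and 2.73 signal in rJAG1 wells, against 0.344, 0.673 and 0.586 in DMSO wells (1.23 ± 0.14, limma adjusted p = 2.8e-05). Col18a1 had 14.5, 20.95 and 16.1 in rJAG1 wells, against 7.34, 9.23 and 6.06 in DMSO wells (1.09 ± 0.15, limma adjusted p = 0.00016). Neither gene overlapped between the groups. Lamb3, a beta chain of epithelial laminin, had 2.90, 5.15 and 2.24 in rJAG1 wells, against 0.869, 0.902 and 1.42 in DMSO wells (1.06 ± 0.21). It was higher in every rJAG1 library, at a low level. Lamc1, the gamma chain of most laminins, had 1179, 846 and 1013 in rJAG1 wells, against 804, 739.7 and 779.6 in DMSO wells (0.37 ± 0.10), and its call held in 3 of 6 fits with 1 library omitted.

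In the other direction, Lama4, the alpha chain of vascular laminins, had 11.2, 10.7 and 11.4 signal in rJAG1 wells, against 20.4, 23.8 and 16.1 in DMSO wells (-0.79 ± 0.14, limma adjusted p = 0.0017). Col6a3, a chain of the beaded-filament collagen VI, had 0.734, 0.480 and 0.521 in rJAG1 wells, against 2.53, 2.42 and 1.201 in DMSO wells (-0.92 ± 0.20). Both were lower in every rJAG1 library, although DMSO library 3 came nearest to them. Col8a1, of the network collagen VIII, had 514, 382 and 475 in rJAG1 wells, against 705, 576 and 768 in DMSO wells (-0.58 ± 0.11), while Col8a2, the other chain of collagen VIII, rose by 0.41 ± 0.12. Col6a1 averaged 856.5 ± 51.0 in rJAG1 wells and 723.5 ± 232 in DMSO wells and did not pass the test. Without DMSO library 3, 18 genes were called, 11 higher and 7 lower. Beside these, the summed level of 8 listed endothelial markers of 16 was 102.1 to 114.8 in rJAG1 wells and 122.1 to 151.7 in rDLL4 wells, against 134.7 to 197.4 in DMSO wells. Of the 8 only Cd34 was called, lower by 0.93 ± 0.09 with rJAG1 and by 0.58 ± 0.09 with rDLL4. The median log2 fold changes over the 8 were -0.06 and -0.04. The part of these markers in the changes was not tested.

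With rDLL4, 12 of the 35 genes rose and none fell (34.3%). Of all genes 3.5% were called, 2.45% higher and 1.05% lower, and the median log2 fold change was 0.28. Col11a1 had 382, 336 and 338 signal in rDLL4 wells, against 195, 171 and 205 in DMSO wells (0.89 ± 0.10, limma adjusted p = 0.00011). Col5a1 had 322, 313 and 312 in rDLL4 wells, against 201, 193 and 187 in DMSO wells (0.70 ± 0.06, limma adjusted p = 7.47e-06). Neither gene's groups overlapped. Col5a3 rose by 1.07 ± 0.23, Lamb3 by 0.91 ± 0.21, Col15a1 by 0.73 ± 0.14, Col1a2 by 0.66 ± 0.17 and Col1a1 by 0.53 ± 0.09. Lama2, the alpha chain of muscle and nerve laminin, had 14.0, 14.7 and 13.3 in rDLL4 wells, against 9.36, 9.63 and 9.91 in DMSO wells (0.49 ± 0.10, limma adjusted p = 0.0078). All rDLL4 libraries of Lama2 were above all DMSO libraries. Col18a1 (0.57 ± 0.15), Lamc1 (0.40 ± 0.10) and Col4a1 (0.33 ± 0.09) rose too, with Col18a1 (limma adjusted p = 0.0496) and Col4a1 (0.0498) next to the threshold. With 1 library omitted the count was 5 to 11, with 5 and 6 when an rDLL4 library was left out and 11 (9 higher, 2 lower) without DMSO library 3. Col11a1, Col5a1, Col1a1, Col15a1 and Lama2 kept their calls in all 6 of these fits.

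**Figure D1:**
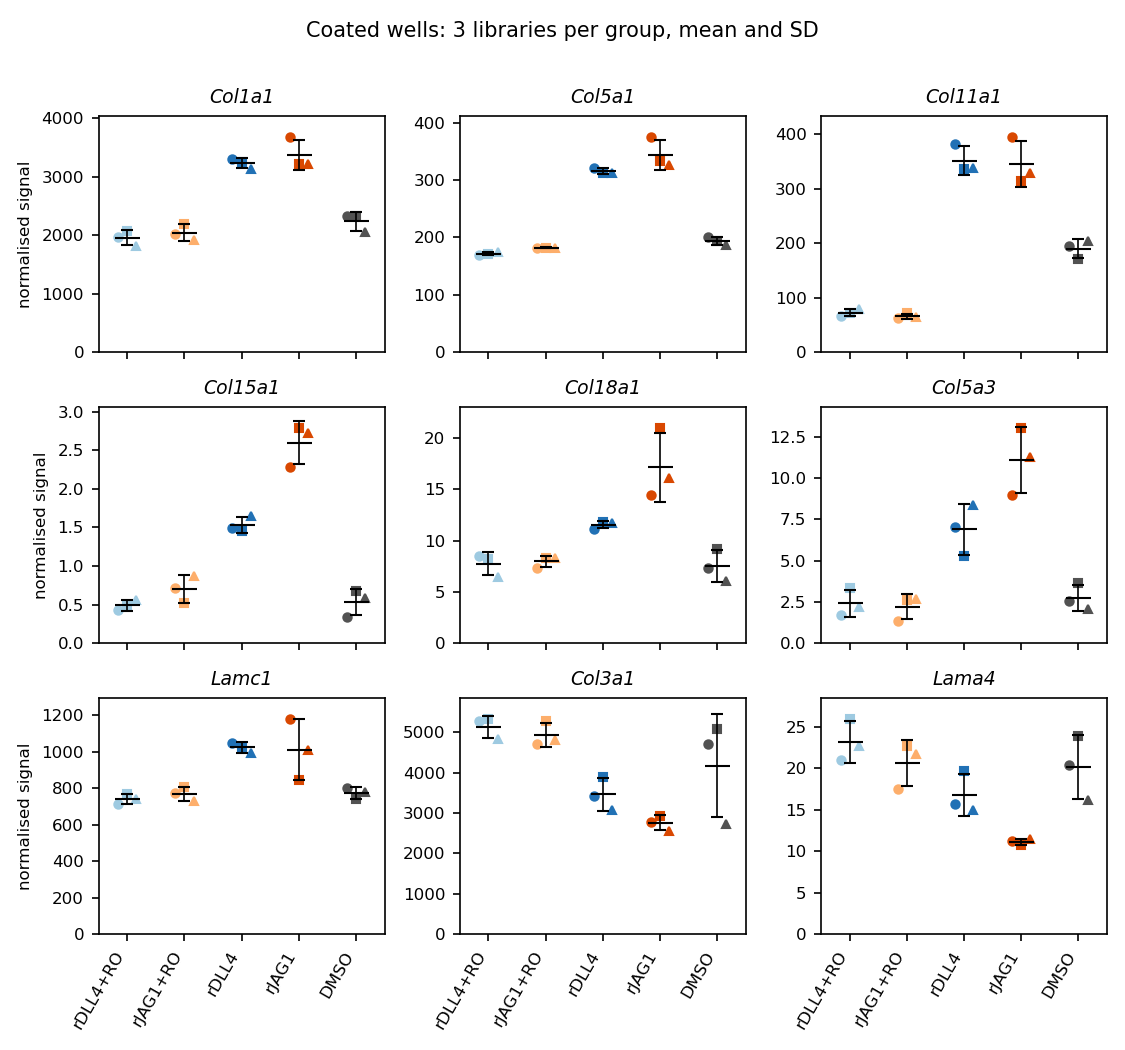
Normalised signal of 9 genes in the coated wells (vertical axis, from 0) by group (horizontal axis). Circles, squares and triangles are libraries 1, 2 and 3, and bars give the mean and SD. Col11a1 is at 62.5 to 79.7 in the wells with RO4929097, at 315 to 394 with ligand alone and at 171 to 205 in DMSO wells.

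Of the 35 genes, 7 were called in no comparison of the coated wells: Col6a1, Col6a2, Col12a1, Col14a1, Col16a1, Col20a1 and Col24a1.

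None of the 35 genes passed the test between the ligands themselves, where 0.231% of all genes did. By limma 11 had an unadjusted p under 0.05, and edgeR called 0. The share of all genes at that unadjusted cut is not given, here or for the later comparisons. The smallest p was that of Lama2, with 14.0, 14.7 and 13.3 signal in rDLL4 wells, against 10.2, 9.95 and 10.9 in rJAG1 wells (0.40 ± 0.10, limma adjusted p = 0.14). Next were Lama4 at 16.8 ± 2.54 in rDLL4 wells and 11.1 ± 0.362 in rJAG1 wells (0.55 ± 0.14, limma adjusted p = 0.19) and Col4a4 (0.58 ± 0.15, limma adjusted p = 0.195). Blocking on the replicate number, 4 genes passed, all higher in rDLL4 wells: Lama2 (limma adjusted p = 0.049), Lama4 (0.040), Col4a4 (0.038) and Col8a1 (0.024). The share of all genes that passed under this block is not given here. The ligands also differ in their tag, which cannot be told apart from the ligand.

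Adding RO4929097 to either ligand lowered, among others, Col1a1, Col1a2, Col5a1, Col5a3, Col11a1, Col15a1, Col18a1, Lamb3 and Lamc1. On rJAG1, 6 of 35 rose and 15 fell, where 18.4% of all genes were called, 9.58% higher and 8.78% lower. On rDLL4, 3 rose and 19 fell, where 10.7% of all genes were called, 4.91% higher and 5.76% lower. These comparisons use the same ligand libraries as the ones above, so they are not independent of them. The summed level of 10 listed OP9-type stromal markers of 16, which these wells show without OP9 cells, was higher with RO4929097. It was 1798 to 2054 against 1312 to 1591 on rDLL4, and 1732 to 1818 against 1252 to 1455 on rJAG1. Single markers went both ways. Of the 10, 2 rose and 2 fell on rDLL4 and 3 rose and 2 fell on rJAG1, with median log2 fold changes of 0.30 and 0.01. Lpl rose and Pdgfrb fell on both ligands. The part of these markers in the changes was not tested.

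Col11a1 fell furthest. It had 62.5, 71.5 and 64.9 signal in rJAG1 wells with RO4929097, against 394, 315 and 329 with rJAG1 alone (-2.36 ± 0.10, limma adjusted p = 7.2e-10). It had 66.8, 72.8 and 79.7 in rDLL4 wells with RO4929097, against 382, 336 and 338 with rDLL4 alone (-2.25 ± 0.10, limma adjusted p = 3.1e-09). The inhibitor wells were also below the 195, 171 and 205 of DMSO wells, by -1.51 ± 0.10 on rJAG1 and -1.37 ± 0.10 on rDLL4. Col8a2 fell to 39.0, 38.0 and 39.3 in rJAG1 wells with RO4929097, against 87.8, 80.5 and 80.3 with rJAG1 alone (-1.075 ± 0.122). It fell to 32.7, 34.8 and 28.8 in rDLL4 wells with RO4929097, against 84.6, 84.5 and 81.6 with rDLL4 alone (-1.36 ± 0.12). These were below the DMSO wells too, where Col8a2 had 73.1, 69.5 and 47.4, by -0.67 ± 0.12 on rJAG1 and -0.94 ± 0.12 on rDLL4. With 1 library omitted, its calls against DMSO held in 1 of 6 fits on rJAG1 and in 6 of 6 on rDLL4.

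The other fibril genes that fell did not pass the test between inhibitor wells and DMSO wells. Col5a3 had 1.35, 2.64 and 2.66 signal in rJAG1 wells with RO4929097, against 8.996, 13.02 and 11.3 with rJAG1 alone (-1.93 ± 0.23). Col5a1 had 182, 182 and 181 in rJAG1 wells with RO4929097, against 374, 333 and 325 with rJAG1 alone (-0.91 ± 0.06, limma adjusted p = 4.35e-08). Neither gene's groups overlapped. Col1a1 fell by 0.72 ± 0.09 on either ligand, and Col1a2 fell by 0.87 ± 0.17 on rJAG1 and by 0.81 ± 0.17 on rDLL4. Col3a1 went the other way on rJAG1, with 4723, 5275 and 4805 in rJAG1 wells with RO4929097, against 2772, 2937 and 2565 with rJAG1 alone (0.84 ± 0.18, limma adjusted p = 0.0034). On rDLL4 it averaged 5144 ± 272 with RO4929097 and 3471 ± 409 without (0.57 ± 0.18), which did not pass the limma test (adjusted p = 0.0515) and passed that of edgeR (adjusted p = 0.0404).

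Of the genes of basement membrane, Lamb3 fell by 1.33 ± 0.21 on rJAG1 and by 1.15 ± 0.21 on rDLL4, and Col15a1 by 1.082 ± 0.139 and by 0.76 ± 0.14. Col18a1 fell by 1.00 ± 0.15 on rJAG1 and by 0.53 ± 0.15 on rDLL4, where its call held in 1 of 6 fits with 1 library omitted. Lamc1 averaged 770.1 ± 39.1 with RO4929097 and 1013 ± 167 without on rJAG1, and 741 ± 27.9 with RO4929097 and 1025 ± 28.1 without on rDLL4. It fell in both (-0.38 ± 0.10 and -0.47 ± 0.10).

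Lamb1, the beta chain of laminin-111, had 196, 189 and 198 signal in rDLL4 wells with RO4929097, against 286, 267 and 307 with rDLL4 alone (-0.56 ± 0.11, limma adjusted p = 0.0028). It was also below the DMSO wells (-0.56 ± 0.11, limma adjusted p = 0.018). Lama4 had 17.5, 22.7 and 21.7 in rJAG1 wells with RO4929097, against 11.2, 10.7 and 11.4 with rJAG1 alone (0.83 ± 0.14, limma adjusted p = 0.00061). Col6a3 rose by 1.11 ± 0.20 on rJAG1 and by 0.67 ± 0.20 on rDLL4, with no library above 2.9 signal in any of these groups. Lamb2, the beta chain that takes the place of Lamb1 at mature vessels and synapses, had 162, 161 and 161 in rJAG1 wells with RO4929097, against 133, 118 and 121 with rJAG1 alone (0.38 ± 0.11, limma adjusted p = 0.022), a call that held in 1 of 6 fits with 1 library omitted.

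Against DMSO, 5 genes were called in rJAG1 wells with RO4929097, where 0.94% of all genes were (0.373% higher, 0.567% lower), and 4 in rDLL4 wells with RO4929097, where 1.4% were (0.552% higher, 0.85% lower). The 4 that fell in rJAG1 wells with RO4929097 were Col11a1, Col8a2, Col4a3 and Col4a4, and Lamb2 rose (0.48 ± 0.11, limma adjusted p = 0.0499). The 4 that fell in rDLL4 wells with RO4929097 were Col11a1, Col8a2, Col4a4 and Lamb1. Without DMSO library 3 the counts were 3 and 4. Under a block on the replicate number the count on rDLL4 was 12, with Col4a1, Col4a2, Col4a3 and Col8a1 among those also lower and Col4a5, Col14a1 and Lamb2 higher. The share of all genes called under that block is not given here. No gene passed the test between the ligands in the presence of RO4929097, where 0% of all genes did, 1 had an unadjusted p under 0.05 by limma, and edgeR called 0. No gene passed the test of whether RO4929097 acted differently on the ligands either, where 0.0149% of all genes did, 3 had an unadjusted p under 0.05, and edgeR called 0.

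**Figure D2:**
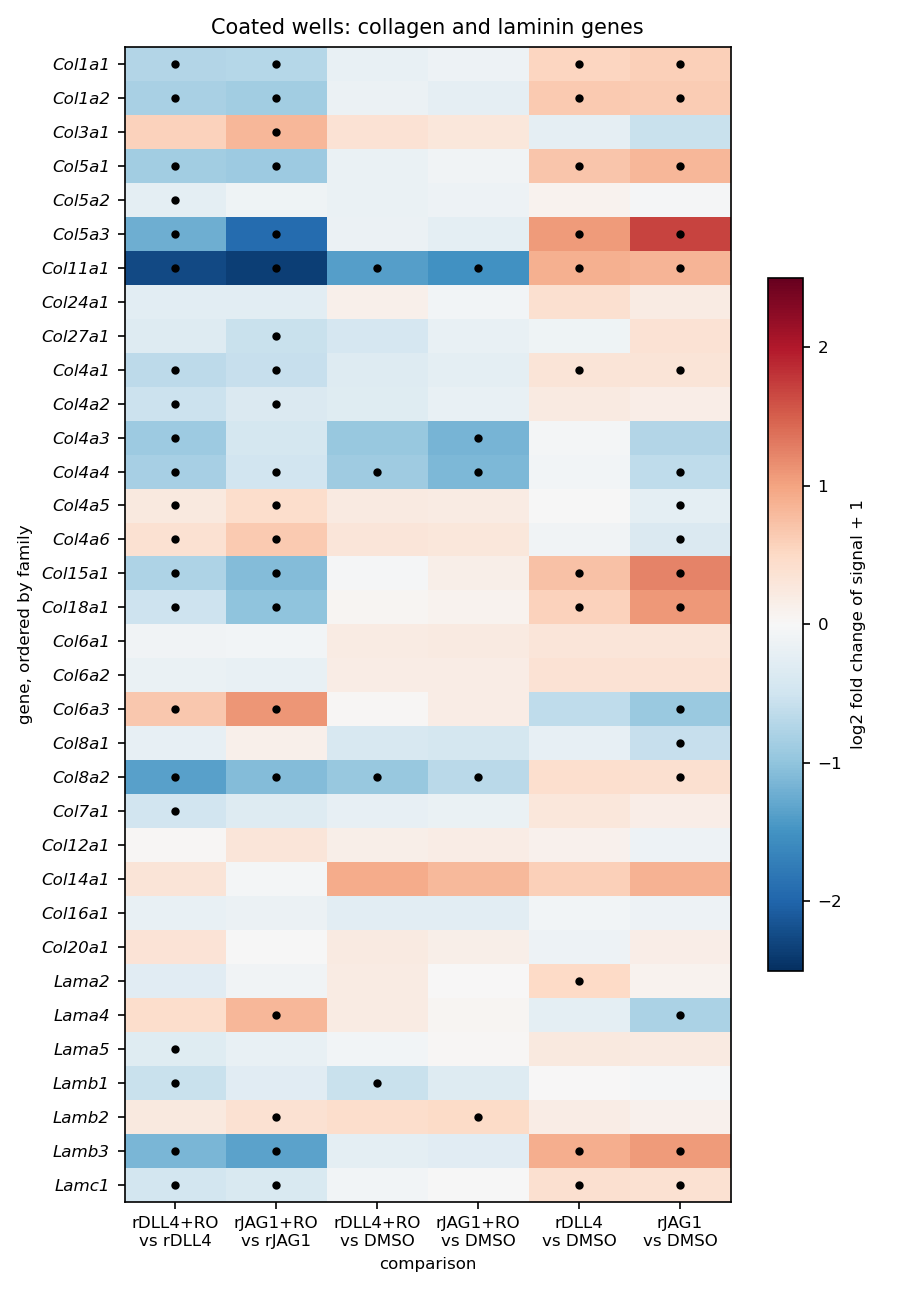
Log2 fold changes of signal + 1 in the coated wells (colour, red higher and blue lower) for listed genes (rows, by family) and 6 comparisons (columns). Black dots mark limma adjusted p under 0.05. Col11a1 is the darkest blue at -2.25 and -2.36, and Lama4, Col3a1, Col4a5, Col4a6 and Col6a3 are red where RO4929097 was added to rJAG1.

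On rDLL4, RO4929097 lowered Col4a1, Col4a2, Col4a3 and Col4a4 and raised Col4a5 and Col4a6, so that the members of each head-to-head pair were called in 1 direction. On rJAG1 the same held except for Col4a3, which did not pass the test. With 1 library omitted, the calls on rDLL4 held in 2 of 6 fits for Col4a3 and Col4a5 and in 1 for Col4a6. On rJAG1 the call of Col4a4 held in 0 of 6 fits and that of Col4a2 in 4. The other calls of these genes held in all 6. Collagen IV alpha 1 and alpha 2 make the common basement membrane network, while alpha 3 to alpha 6 make networks of particular tissues. Col4a1 had 968, 944 and 875 signal in rJAG1 wells with RO4929097, against 1559, 1257 and 1329.9 with rJAG1 alone (-0.57 ± 0.09, limma adjusted p = 0.00022). Col4a2 had 571, 572 and 513 in rJAG1 wells with RO4929097, against 832, 609 and 711 with rJAG1 alone (-0.37 ± 0.10, limma adjusted p = 0.017). Both groups were apart for each gene, and on rDLL4 Col4a1 fell by 0.65 ± 0.09 and Col4a2 by 0.53 ± 0.10. Between ligand and DMSO wells only Col4a1 of this pair passed the test, with 0.33 ± 0.09 on rJAG1.

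Col4a3 and Col4a4 encode chains known from the kidney filter. Col4a4 had 9.43, 11.6 and 11.6 signal in rJAG1 wells with RO4929097 and 15.5, 14.2 and 16.9 with rJAG1 alone, against 22.7, 19.8 and 33.8 in DMSO wells. Its difference from DMSO was -1.12 ± 0.15 with RO4929097 (limma adjusted p = 0.0018) and -0.64 ± 0.15 with rJAG1 alone (limma adjusted p = 0.012). On rDLL4 it had 12.4, 12.9 and 13.4 with RO4929097, against 23.6, 21.4 and 26.3 without (-0.83 ± 0.15, limma adjusted p = 0.0021). So rJAG1 wells were below DMSO wells before any inhibitor, and rDLL4 wells lay among them. Col4a3 was at 2.05 to 3.16 in the 6 libraries with RO4929097, against 5.02 to 9.24 in DMSO wells. Its fall passed the test on rDLL4 against rDLL4 alone (-0.90 ± 0.24, limma adjusted p = 0.024) and on rJAG1 against DMSO (-1.17 ± 0.24, limma adjusted p = 0.029). With 1 library omitted, those calls held in 2 and in 1 of 6 fits. The 9.24 was in DMSO library 3, against 5.36 and 5.02 in the other DMSO libraries.

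Col4a5 and Col4a6 went up with RO4929097. Col4a6 had 189, 203 and 191 signal in rJAG1 wells with RO4929097, against 142, 101 and 129.6 with rJAG1 alone (0.66 ± 0.11, limma adjusted p = 0.00034). Col4a5 had 339, 372 and 349 in rJAG1 wells with RO4929097, against 264, 255 and 259 with rJAG1 alone (0.44 ± 0.07, limma adjusted p = 0.00037). Neither overlapped between the groups. On rDLL4 the rises were 0.38 ± 0.11 for Col4a6 and 0.25 ± 0.07 for Col4a5. Against DMSO, rJAG1 lowered both, by -0.37 ± 0.11 and -0.24 ± 0.07, with Col4a6 libraries overlapping. With 1 library omitted, those calls held in 3 (Col4a6) and 1 (Col4a5) of 6 fits.

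**Figure D3:**
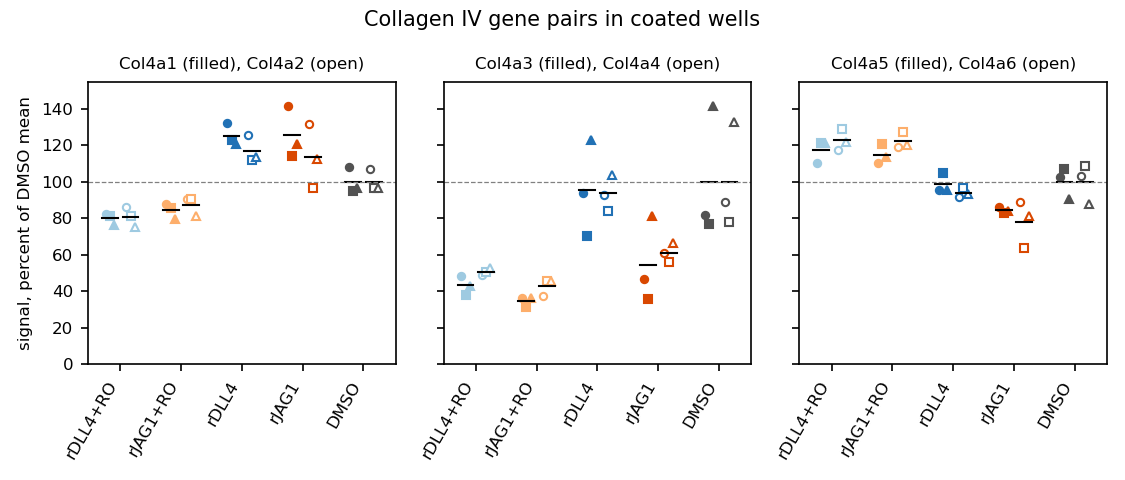
Signal of the 6 collagen IV genes in the coated wells as a percent of the DMSO mean (vertical axis) by group (horizontal axis), 1 panel for each head-to-head pair. Filled and open symbols are the genes named above each panel, shapes are library numbers as before, short lines are means and the dashed line is 100%. Wells with RO4929097 lie under the line for 2 pairs and over it for Col4a5 and Col4a6.

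Over OP9 cells at 24 h, the genes of collagens XV and XVIII stood out. With OP9-Jag1, 3 of 38 genes rose and 1 fell, where 2.02% of all 13886 genes were called, 1.04% higher and 0.987% lower. With OP9-Dll4 only Col18a1 was called, where 0.511% of all genes were, 0.266% higher and 0.245% lower. The median log2 fold change over the 38 was 0.15 with OP9-Jag1 and 0.07 with OP9-Dll4.

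Col15a1 had 15.8, 11.3 and 14.4 signal over OP9-Jag1 at 24 h, against 1.52, 1.77 and 1.88 over OP9-GFP (2.43 ± 0.38, limma adjusted p = 0.0033). Col18a1 had 58.3, 44.2 and 63.3 over OP9-Jag1, against 13, 8.92 and 16.1 over OP9-GFP (2.06 ± 0.24, limma adjusted p = 0.00041). Both were far apart, and omitting any 1 library left both calls in place. Col5a1 had 535, 541 and 626 over OP9-Jag1, against 431, 327 and 458 over OP9-GFP (0.495 ± 0.115, limma adjusted p = 0.032). Col8a1 had 495, 577 and 579.5 over OP9-Jag1, against 671, 718 and 674 over OP9-GFP (-0.325 ± 0.081, limma adjusted p = 0.0487). These 2 did not overlap between the groups either, but Col5a1 kept its call in 1 and Col8a1 in 0 of the 6 fits, and edgeR did not call Col8a1 (adjusted p = 0.054).

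Over OP9-Dll4 at 24 h, Col18a1 had 38.5, 32.3 and 43.0 signal, against 13, 8.92 and 16.1 over OP9-GFP (1.54 ± 0.24, limma adjusted p = 0.0076). Its call held in 3 of 6 fits and was lost without OP9-Dll4 library 1 or 3 or OP9-GFP library 2. Col15a1 had 6.29, 6.23 and 5.85 over OP9-Dll4, against 1.52, 1.77 and 1.88 over OP9-GFP, which did not pass the test (1.39 ± 0.38, limma adjusted p = 0.16). Col8a1 averaged 561 ± 35.4 over OP9-Dll4 and 688 ± 26.6 over OP9-GFP, and did not pass it either (-0.30 ± 0.08, limma adjusted p = 0.17). Blocking on the replicate number, 4 genes were called over OP9-Dll4: Col5a1, Col15a1 (limma adjusted p = 0.028) and Col18a1 higher and Col4a4 lower. With the number as a block within each time, 12 were called over OP9-Dll4 and 16 over OP9-Jag1, among them Col1a1 and Col1a2, which were higher over both. The shares of all genes called in these block fits are not given here, so these counts cannot be set against them. Over OP9-Dll4, 4 of 7 listed cardiomyocyte markers of a list of 10 rose, with a summed level of 55.5 to 87.0, against 37.9 to 43.2 over OP9-GFP, and Myh7 was at 6.37 to 19.5, against 0.0354 to 0.16. Their part in the change of Col18a1 was not tested. Of 16 OP9 stromal markers 11 were listed and none was called with either ligand. Their summed level was 1084 to 1243 over OP9-Dll4 and 1132 to 1280.5 over OP9-Jag1, against 1059.5 to 1363 over OP9-GFP. Ebf1, Lepr, Pparg, Il7 and Lum were not listed in the first table. Markers of this list were also read in the coated wells, as above. The summed level of 9 listed endothelial markers of 16 was 86.5 to 93.0 over OP9-Dll4 and 81.5 to 92.7 over OP9-Jag1, against 110.0 to 112.5 over OP9-GFP. Of these Cd34 fell, by 0.48 ± 0.07 over OP9-Dll4 and by 0.59 ± 0.07 over OP9-Jag1, and the other 8 were not called. Their part in the changes was not tested.

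The other abundant members were not called with either ligand at 24 h. Col1a1 averaged 3956 ± 769 over OP9-Dll4 and 4312 ± 828.6 over OP9-Jag1, against 3168 ± 689.8 over OP9-GFP. Col4a1 averaged 1650.0 ± 66.5 over OP9-Dll4 and 1692 ± 122.5 over OP9-Jag1, against 1621 ± 119.7 over OP9-GFP. Lamc1 averaged 1258 ± 117 and 1308 ± 163, against 1116 ± 52.4, and Lamb1 447 ± 10.9 and 435 ± 28.9, against 429.6 ± 30.5, in the same order of cells. Col6a1 averaged 1098 ± 113 over OP9-Dll4 and 1226 ± 107 over OP9-Jag1, against 886 ± 146 over OP9-GFP, with no overlap for OP9-Jag1.

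Between the ligand-bearing cells at 24 h no gene of the 38 passed the test, where 0.0288% of all genes did, 2 had an unadjusted p under 0.05 by limma, and edgeR called 0. Those were Col15a1, with 6.29, 6.23 and 5.85 signal over OP9-Dll4, against 15.8, 11.3 and 14.4 over OP9-Jag1 (-1.05 ± 0.38), and Col18a1 (-0.52 ± 0.24), both with limma adjusted p = 1. Their libraries did not overlap, and both passed with the replicate number as a block within each time (limma adjusted p = 0.00055 and 0.0015).

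At 6 h no gene was called with OP9-Jag1 or OP9-Dll4, where 0.101% and 0.0072% of all genes were. By limma 1 gene had an unadjusted p under 0.05 in each, Col18a1, and edgeR called 0 in both. Col18a1 had 30.2, 46.3 and 34.4 signal over OP9-Jag1, against 15.1, 26.6 and 20.1 over OP9-GFP (0.83 ± 0.24, limma adjusted p = 0.39). Over OP9-Dll4 it had 24.9, 45.4 and 30.0, which overlapped the OP9-GFP values (0.66 ± 0.24, limma adjusted p = 0.95). The library numbered 2 was the highest of each group. Col15a1 had 4.01, 11.9 and 5.61 over OP9-Jag1 and 3.96, 11.5 and 4.36 over OP9-Dll4, against 1.62, 6.56 and 3.19 over OP9-GFP, with differences of 0.79 ± 0.38 and 0.67 ± 0.38 that did not pass the test. With the number as a block within each time, 5 genes were called over OP9-Jag1 and 4 over OP9-Dll4, Col15a1, Col18a1, Col5a3 and Col6a1 in both, and Col6a2 over OP9-Jag1. No share of all genes under this block is given beside these counts. In the fit without a block the count was also 0 in both when the libraries numbered 2 were left out, with differences over OP9-Jag1 of 0.795 ± 0.206 for Col15a1 and 0.852 ± 0.222 for Col18a1. Between OP9-Dll4 and OP9-Jag1 at 6 h, 0% of all genes and none of the 38 passed, none had an unadjusted p under 0.05, and edgeR called 0. The change of the response between the times was not called for any of the 38 with either ligand, where 0.0072% of all genes were called with each. By limma 3 had an unadjusted p under 0.05 with OP9-Jag1 and 1 with OP9-Dll4, and edgeR called 0. The difference was largest for Col15a1 (1.65 ± 0.53) and Col18a1 (1.24 ± 0.34) with OP9-Jag1, both with limma adjusted p = 1, and with the number as a block within each time it was called (limma adjusted p = 0.0001 and 8.3e-06).

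**Figure D4:**
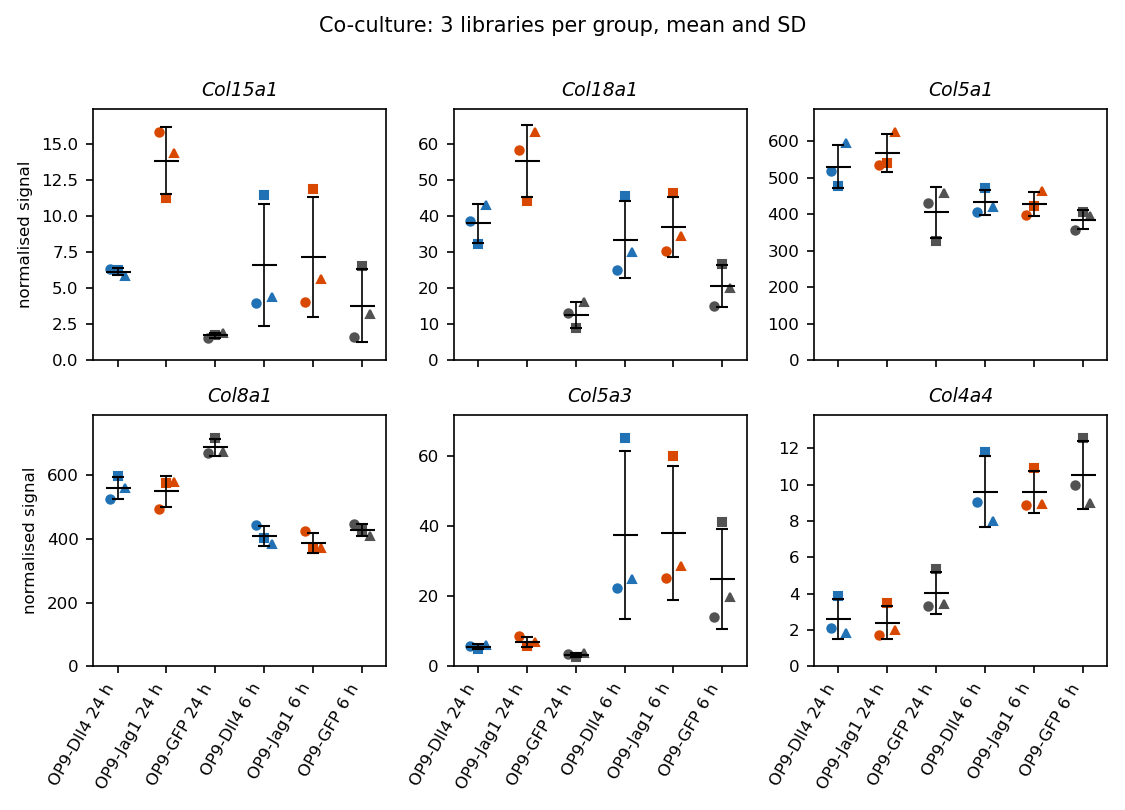
Normalised signal of 6 genes in the co-cultures of the first table (vertical axis, from 0) by OP9 cell and time (horizontal axis). Circles, squares and triangles are libraries 1, 2 and 3, and bars give the mean and SD. Col15a1 is at 11.3 to 15.8 over OP9-Jag1 at 24 h and at 1.52 to 1.88 over OP9-GFP, and Col5a3 and Col4a4 are lower at 24 h than at 6 h in all 3 kinds of co-culture.

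In control co-cultures over OP9-GFP, 3 of the 38 genes rose and 6 fell at 24 h against 6 h, where 19.2% of all genes were called, 9.45% higher and 9.71% lower. The share of members, 23.7%, was near that background. Time and confluency changed together, so they cannot be told apart. Col5a3 had 3.44, 2.56 and 3.67 signal at 24 h, against 14.0, 41.2 and 19.7 at 6 h (-2.49 ± 0.39, limma adjusted p = 0.00046). Col4a4 had 3.29, 5.38 and 3.42 at 24 h, against 9.97, 12.6 and 8.97 at 6 h (-1.21 ± 0.23). Col8a1 had 671, 718 and 674 at 24 h, against 447, 429 and 409 at 6 h (0.68 ± 0.08, limma adjusted p = 6.9e-05). None of the 3 overlapped between the times. Col24a1 fell by 0.91 ± 0.22, Col7a1, the anchoring fibril gene, by 0.88 ± 0.24 and Col4a3 by 0.72 ± 0.22, while Col8a2 rose by 0.56 ± 0.19 and Col27a1 by 0.44 ± 0.12. Without the libraries numbered 2 at 6 h, 7 rose and 5 fell, and without OP9-GFP library 1 of 24 h 5 were called in all. Col1a1, the most abundant per kilobase, averaged 3168 ± 689.8 at 24 h and 3251 ± 149.7 at 6 h, which did not pass the test.

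In cells treated with RO4929097 before 6 h over OP9-GFP, 1 of 36 genes was called, where 0.909% of all 12984 genes were, 0.223% higher and 0.685% lower. Col5a3 had 2.21, 4.97, 4.19 and 4.89 signal with RO4929097, against 9.30, 13.2, 10.3 and 11.5 with DMSO (-1.28 ± 0.19, limma adjusted p = 0.012). The groups did not overlap, and the call held without both libraries numbered 1 (-1.15 ± 0.12, limma adjusted p = 0.0053) but was lost without DMSO library 2. Col11a1 had 57.9, 60.1, 85.2 and 113 with RO4929097, against 115, 103, 173 and 204 with DMSO, which overlapped and did not pass the test (-0.90 ± 0.25, limma adjusted p = 0.16). Within each replicate number it was lower with RO4929097. Under a block on the replicate number, 9 genes were called, all lower, among them Col5a3, Col11a1 (limma adjusted p = 5.7e-05), Col1a1 (0.038), Col1a2 (0.0085), Col5a1 (0.023), Col18a1 (0.0096), Col8a2 (0.024) and Lamb1 (0.042). The share of all genes called under this block is not given here, so the 9 cannot be set against it. In the fit without the block, Col8a2 averaged 12.2 ± 3.16 with RO4929097 and 20.2 ± 3.68 with DMSO (-0.70 ± 0.18, limma adjusted p = 0.13). Of the OP9 stromal markers 9 of 16 were listed, none was called, and their sum was 1175 to 2041 with RO4929097 and 1149 to 2056 with DMSO. The sum of 8 listed endothelial markers of 16 was 119.8 to 132.7 with RO4929097 and 107.3 to 115.8 with DMSO, without overlap and with none called, and its part in the changes was not tested.

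Several abundant members kept overlapping levels in this experiment. Col3a1 averaged 2205 ± 485.7 with RO4929097 and 2185 ± 346 with DMSO, Col4a1 1533 ± 154 and 1676 ± 108, Col4a2 882 ± 93.9 and 892 ± 131, Col6a1 664 ± 68.6 and 789 ± 157, and Lama4 24.4 ± 2.29 and 25.0 ± 3.61 (SD, n = 4 each). None of these passed the test.

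**Figure D5:**
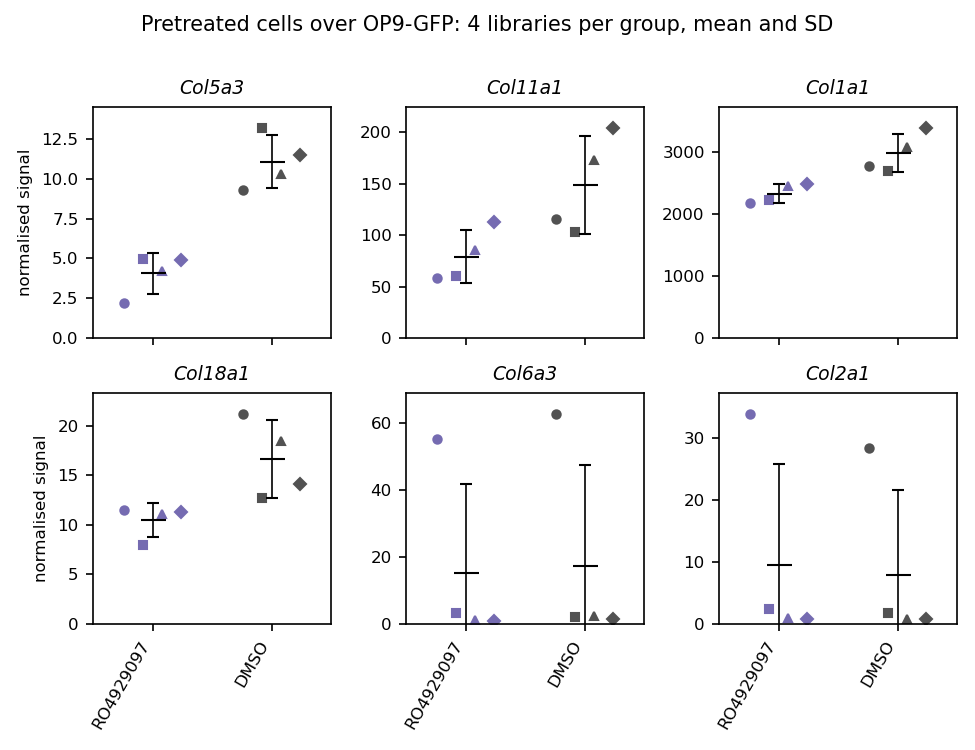
Normalised signal of 6 genes in MEEC treated with RO4929097 or DMSO and then laid over OP9-GFP (vertical axis, from 0, by group on the horizontal axis). Circles, squares, triangles and diamonds are libraries 1 to 4, and bars give the mean and SD. Col5a3 is at 2.21 to 4.97 with RO4929097 and 9.30 to 13.2 with DMSO, and in Col6a3 and Col2a1 the circle of each group lies far above the rest.

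Genes of collagen synthesis, basement membrane and collagen or laminin receptors were followed beside the members. Of 25 listed synthesis and processing genes, 5 rose and 2 fell in rJAG1 wells and 4 rose in rDLL4 wells against DMSO, where 9.58% and 3.5% of all genes were called. Adamts2, which trims the amino end of procollagen, averaged 35.9 ± 1.19 signal in rJAG1 wells and 13.9 ± 2.92 in DMSO wells (1.33 ± 0.12), and Pcolce2, an enhancer of procollagen trimming, averaged 7.36 ± 1.13 and 2.32 ± 0.615 (1.34 ± 0.16). Loxl1, a crosslinking enzyme gene, averaged 123 ± 11.9 in rJAG1 wells and 68.6 ± 15.1 in DMSO wells (0.85 ± 0.13). With RO4929097 on rJAG1, where 18.4% of all genes were called, 2 rose and 6 fell, Pcolce2 by 1.98 ± 0.16. Over OP9-Jag1 at 24 h Adamts2 rose by 1.22 ± 0.28 as well and Lox, a crosslinking enzyme gene, fell by 0.53 ± 0.11, among 2 that rose and 1 that fell of 28, where 2.02% of all genes were called. After pretreatment and 6 h over OP9-GFP, Adamts2 (-0.79 ± 0.10), Lox (-0.69 ± 0.11) and Plod2 (-0.37 ± 0.05) fell with RO4929097 against DMSO. None of 26 rose, where 0.909% of all genes were called.

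Of 12 listed other basement membrane genes, 2 rose and 5 fell in rJAG1 wells, where 9.58% of all genes were called. Ntn4, a laminin-related netrin gene, averaged 24.9 ± 6.38 signal in rJAG1 wells and 3.81 ± 0.906 in DMSO wells (2.42 ± 0.22), and Npnt, an integrin ligand gene, averaged 81.2 ± 5.29 and 142 ± 28.8 (-0.78 ± 0.12). In rDLL4 wells, where 3.5% were called, 2 rose and none fell, Ntn4 by 1.65 ± 0.22 and Nid1, which links laminin to collagen IV, by 0.44 ± 0.10. Adding RO4929097 to rJAG1 lowered Ntn4 (-2.73 ± 0.22) and Nid1 (-0.55 ± 0.10) and raised Npnt (1.12 ± 0.12), among 3 that rose and 3 that fell, where 18.4% of all genes were called. Of 16 listed receptor genes, 2 rose and 5 fell in rJAG1 wells, against the same background of 9.58%, with Itga7, a laminin-binding integrin chain, at 76.1 ± 11.5 in rJAG1 wells and 28.4 ± 3.39 in DMSO wells (1.39 ± 0.15). Bcam, a receptor of laminin alpha 5, fell by 0.61 ± 0.07 in rJAG1 wells, and with RO4929097 on rJAG1 it rose by 0.96 ± 0.07, among 5 that rose and 5 that fell, against 18.4% of all genes called. Over OP9-Jag1 at 24 h, Itga1 (0.74 ± 0.18), Itga7 (0.74 ± 0.17) and Sdc1 (0.44 ± 0.11) rose of 17, where 2.02% of all genes were called, and Ntn4 rose (1.23 ± 0.19) over OP9-Jag1 and (0.89 ± 0.19) over OP9-Dll4, where 0.511% were.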

How the data were processed

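The values are the authors' deposited signal, normalised to the library size: by the submitters' processing notes, reads were checked with FastQC, trimmed with cutadapt, quantified with RSEM on GRCm38 and analysed with limma. The sources used here give neither their versions nor a strand setting. The deposited signal steps by whole reads, and 100% of values gave whole reads within 0.01, from which depth and an edgeR alternative were taken. A count of 3 reads corresponds to a signal of 0.0859 to 0.266.

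Here, each table was fitted apart with limma 3.58.1 in R 4.3.3 on log2(signal + 1), with all its groups, a trend in the variance and Benjamini-Hochberg adjustment over all listed genes. No gene was filtered out. Alternatives were a pseudocount of 0.1, a minimum mean signal of 5, quantile normalization, the replicate number as a block, edgeR 4.0.16 and leaving out each library. The text names, per comparison, up to 12 called members by size of fold change, the 3 with the smallest p where fewer than 3 passed, and 12 members throughout; further called members, the collagen IV genes among them, were named after their values were seen. The members and lists were chosen with earlier results of these data known. The replicate numbers pair the samples by the data (every correlation of deviations above 0.1), except for OP9-GFP at 24 h against 6 h and RO4929097 on rDLL4. The fit was tested on simulated data with the same dispersion for every gene and no effect of the replicate number. The outcome is not given here and does not cover such effects. Sequences are from RefSeq. Counts cover all members, and 1 of them is not reported here by name.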

Additional observations from a re-analysis of the deposited data

Results flagged for a closer look

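In the co-cultures after RO4929097 or DMSO, 8 of 72 groups of 4 libraries that were tested had 1 library far from the other 3. Chance flags about 1 in 20 groups, and 5 of the 8 come from a library numbered 1. Col6a3 was at 55.1 in RO4929097 library 1 (0.77 to 3.14 in the others) and at 62.7 in DMSO library 1 (1.28 to 2.23). Col2a1, the cartilage collagen, was at 33.9 in RO4929097 library 1 (0.729 to 2.41) and at 28.3 in DMSO library 1 (0.743 to 1.72). Col15a1 was at 5.21 in RO4929097 library 1 (0.533 to 1.3). Of the others, Col6a1 was at 766 in RO4929097 library 3 (619 to 640.0), Col18a1 at 7.91 in RO4929097 library 2 (11.1 to 11.5), and Col4a3 at 4.3 in DMSO library 4 (2.59 to 2.76). None of these genes was called between RO4929097 and DMSO in the fit without a block.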

How the results depend on the processing

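Counts of called genes stayed within 1.5 times the reported count in all 19 comparisons with a pseudocount of 0.1, a minimum mean signal of 5, quantile normalization and edgeR. The called genes kept their direction in 484 of 484 values under the alternatives. In the block fits this could not come out otherwise, since a block left the fold changes the same. All these alternatives used the same libraries. With the replicate block, the counts that moved further were 4 for OP9-Dll4 against OP9-GFP at 24 h, 15 for OP9-GFP at 24 h against 6 h, 9 for RO4929097 over OP9-GFP, 4 for rDLL4 against rJAG1 and 12 for rDLL4 with RO4929097 against DMSO. The replicate block within each time gave 5 for OP9-Jag1 and 4 for OP9-Dll4 at 6 h, 16 and 12 at 24 h, 2 for OP9-Dll4 against OP9-Jag1 at 24 h, 18 for OP9-GFP at 24 h against 6 h, and 4 (OP9-Jag1) and 1 (OP9-Dll4) for the change between the times. The cause was not tested. The shares of all genes called in the block fits are not given here, so these counts cannot be set against them. Without the libraries numbered 2 at 6 h, an alternative chosen after seeing the data, OP9-GFP at 24 h against 6 h gave 12 calls, 7 higher and 5 lower. Without both libraries numbered 1, also chosen after seeing the data, RO4929097 over OP9-GFP gave 1.

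Leaving out 1 library gave 2 to 3 calls for OP9-Jag1 and 0 to 1 for OP9-Dll4 at 24 h, 5 to 9 for OP9-GFP at 24 h against 6 h, 0 to 1 for RO4929097 over OP9-GFP, 13 to 18 for rJAG1 and 5 to 11 for rDLL4 against DMSO. It gave 17 to 21 on rJAG1 and 14 to 19 on rDLL4 for RO4929097, with 14 without library 3 of rDLL4 or of rDLL4 with RO4929097. Against DMSO it gave 2 to 6 for rJAG1 with RO4929097 and 3 to 9 for rDLL4 with RO4929097, with 9 without DMSO library 2 and 2 without DMSO library 1 or any library of rJAG1 with RO4929097. It gave 0 in the other comparisons. Groups of 3 libraries limit what could be called.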
